A study of Mus musculus with 6 samples.

Results

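The genes of sterol and fatty acid synthesis, with the regulators and carriers that work beside them, were followed through a knockdown of the microRNA miR-27b in mouse cortical neurons. The set held 34 genes, taken as the probes whose array annotation carries a member's symbol: 18 enzymes of sterol synthesis, 9 of fatty acid synthesis and 7 regulators, transporters and storage genes. The annotation named 49 probes for 30 of them. Of the 34 genes, 27 had a probe that was detected (detection p under 0.05) on at least 3 of the 6 arrays, and these were tested among 11280 genes in all. Acat2, Hmgcs1, Fdft1 and Acaca were not analysed here, since no probe carried their symbol, and Srebf1, Abca1 and Soat1 had no probe that passed.

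One group was cortical neurons given a lentivirus that knocks down miR-27b, and the other was cortical neurons given a control lentivirus, with 3 arrays in each. Both groups used neurons of strain C57BL/6J and genotype Dicerflox/flox, which were seeded at 500000 per well, which received virus at a multiplicity of infection of 5 once attached, and which were collected after 14 days in culture. The labels give no age of the donor animals and no sequence of the knockdown construct. The design has 3 neuronal preparations, and a replicate number shared by a knockdown and a control array was read as 1 preparation.

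Neurons and the glia around them build cholesterol from acetyl-CoA, since little of it crosses from the blood into the brain. The mevalonate branch makes isoprenoid units, farnesyl diphosphate feeds squalene synthesis, and a chain of demethylation, reduction and isomerisation steps turns lanosterol into cholesterol. Fatty acid synthase and its partners use the same acetyl-CoA pool for saturated chains, which elongases and desaturases then modify. The SREBP transcription factors, held back by the INSIG proteins when sterols are plentiful, drive most of these genes, and they act at promoters together with the CCAAT-binding factor NF-Y.

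The microRNA that was lowered is shown because its seed, the bases that pair with a target, is shared by its paralogue; capitals mark bases 2 to 8. In RefSeq (GRCm38.p6) miR-27b-3p lies at chr13:63300760-63300780 and miR-27a-3p at chr8:84208727-84208747, both on the plus strand.
mmu-miR-27b-3p: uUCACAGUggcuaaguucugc
mmu-miR-27a-3p: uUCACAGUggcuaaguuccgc
The mature forms have the same seed, UCACAGU. No probe was named for miR-27b, so its level in these arrays was not measured. Among lipid genes that have been reported as miR-27 targets, Abca1, Pparg and Rxra had no probe past the filter. The tested members of that list, the acyltransferase gene Gpam and the lipoprotein lipase gene Lpl, differed by -0.083 (SE 0.16, limma adjusted p = 0.733) and 0.0021 (SE 0.13, limma adjusted p = 0.992) on the log2 scale. Gpam was dim, with a mean of 5.98 in knockdown and 6.06 in control cultures and detection on 2 of 3 knockdown arrays. The dimmest detected probe of each array read 5.71 to 5.98, so the value of Gpam says little.

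Between 38.6% and 42.3% of the 45281 probes were detected per array, and knockdown replicate 3 had the lowest share. Spearman correlations across probes ran from 0.876 to 0.907, lowest for knockdown replicate 3. Of the 11280 genes, 16.6% were higher and 15.3% lower after knockdown at an adjusted p under 0.05. Neuronal markers such as Stmn2, Map2 and Rbfox3 were detected on all arrays, and of 9 tested neuronal markers 2 rose (1 with the replicate block), 4 fell and 3 did not pass. Slc17a6 rose by 0.79 (limma adjusted p = 0.00108) and Stmn2 by 0.31 (limma adjusted p = 0.028). Gad1 differed by -1.03, Slc17a7 by -0.87, Slc32a1 by -0.50 and Rbfox3 by -0.42 (limma adjusted p = 0.0429 at most). Of 11 tested astrocyte markers 6 fell (7 with the replicate block), 0 rose and 5 did not pass, with a median difference of -0.73. Their summed intensity was 18730 to 23350 in knockdown cultures, against 25090 to 34390 in control cultures, and Slc1a3, Aldoc and Gja1 were its brightest members. Aldoc fell by 1.23 (limma adjusted p = 0.00262). Gfap differed by -1.83, Aqp4 by -1.29, Slc1a2 by -1.07 and Slc4a4 by -0.67 (limma adjusted p = 0.00697 at most). Gjb6, detected on 0 of 3 knockdown arrays, differed by -0.97 (limma adjusted p = 0.0212). Slc1a3 differed by -0.13 (limma adjusted p = 0.54) and Gja1 by -0.44 (limma adjusted p = 0.0896, or 0.0195 with the replicate block). Glul differed by -0.73 (limma adjusted p = 0.17), Aldh1l1 by -0.090 and Sox9 by -0.073. Of the other glial and vascular lists, the oligodendrocyte list had 4 of 11 markers tested (Olig1, Mbp, Cnp and Cspg4), a median of -0.39 and 0 called by limma (1 at an unadjusted p under 0.05, and 2 lower with the replicate block), and Mog, Mag, Mobp, Olig2, Sox10 and Pdgfra were not among the tested genes. The microglial list had 1 of 8 tested (Aif1, at 0.43) and the vascular and fibroblast list 4 of 10 (median 0.15), with 0 called by limma in each (1 in each at an unadjusted p under 0.05, and 0 and 2 with the replicate block). In bulk RNA, fewer cells of a type and less RNA per cell cannot be told apart. Astrocytes also express sterol and fatty acid synthesis genes. The part of the astrocyte and neuronal marker differences in the results that follow was not tested.

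Sterol synthesis genes leaned higher after miR-27b knockdown, at the mevalonate, demethylation and final reduction steps. Of 15 tested enzymes, 6 rose, 1 fell and 8 did not pass, against 16.6% of all genes higher and 15.3% lower (31.9% in either direction). Over all 27 tested members 8 were called, a share (29.6%) below that of all genes. The members were chosen with earlier results of these data known. With the replicate block the counts were also 6 and 1, against 17.1% and 16.3% of all genes. The median log2 difference was 0.21 (0.23, 0.098 and 0.36 in preparations 1, 2 and 3), against 0.0057 over all genes tested. All 3 knockdown arrays lay above all 3 control arrays for 8 of the 15 enzymes, an order found for 24.9% of all genes. The reverse order held for 1 enzyme, against 23.5% of all genes. With arrays scaled to a common median, 4 of the 15 rose and 1 fell, against 8.15% and 12.1% of all genes under that scaling.

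**Figure D1:**
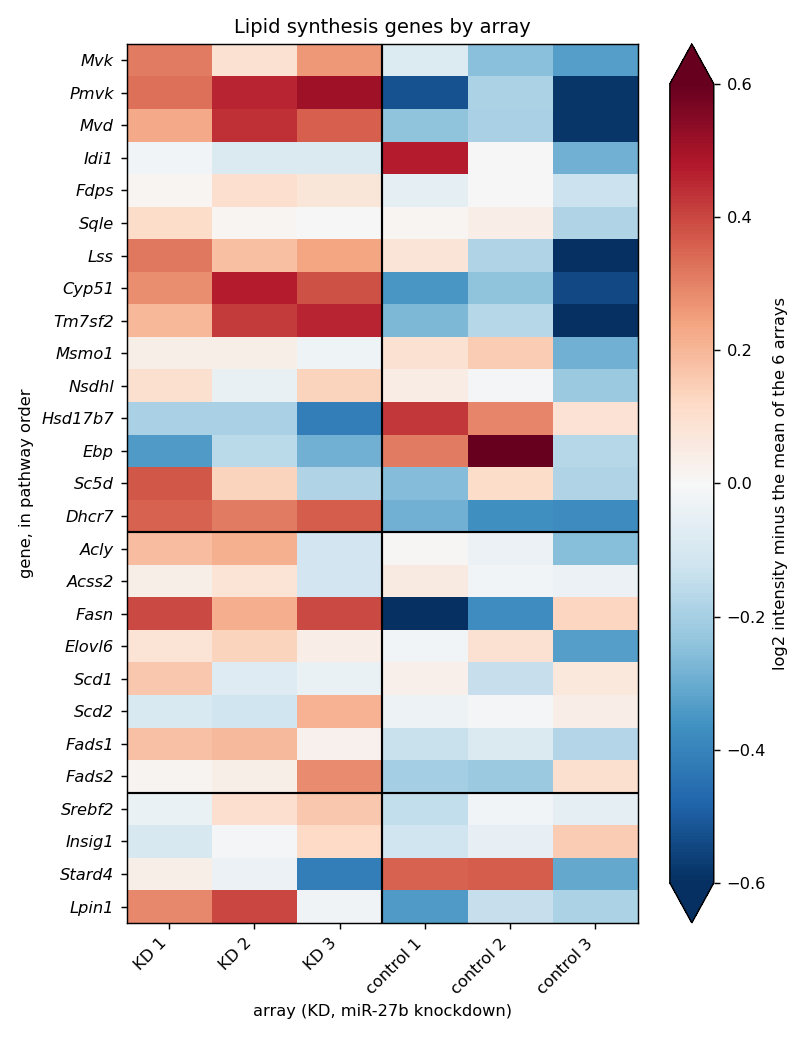
Log2 intensity of each of the 27 tested genes on each array, minus the gene's mean over the 6 arrays; columns are arrays, with the 3 miR-27b knockdown (KD) arrays left of the 3 control arrays, and rows run in pathway order, with black lines between sterol synthesis, fatty acid synthesis and the remaining genes. Pmvk, Mvd, Cyp51, Tm7sf2 and Dhcr7 are red on every knockdown array and blue on every control array, Hsd17b7 is the reverse, and control replicate 3 is the lowest control array for 14 of the 15 sterol enzymes.

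The enzymes that carry mevalonate to isopentenyl diphosphate rose together. Mevalonate kinase, Mvk, read 7.29, 7.07 and 7.24 in knockdown cultures and 6.90, 6.73 and 6.65 in control cultures (log2 intensity, replicates 1 to 3). Phosphomevalonate kinase, Pmvk, read 11.23, 11.36 and 11.41 in knockdown cultures and 10.38, 10.71 and 10.32 in control cultures. Mvd, the decarboxylase that yields isopentenyl diphosphate, read 11.97, 12.18 and 12.10 in knockdown cultures and 11.50, 11.55 and 11.16 in control cultures. For each of these genes the lowest knockdown array stood above the highest control array. Pmvk had the largest rise of the set, at 0.86 (SE 0.12, limma adjusted p = 0.00341), or 1.82-fold. Mvd rose by 0.67 (SE 0.13, limma adjusted p = 0.00921) and Mvk by 0.44 (SE 0.10, limma adjusted p = 0.0196). The calls of Mvd and Mvk were lost with median scaling (adjusted p = 0.0662 and 0.116). Without background correction the rise of Mvk was 0.28, and it did not pass with a trended robust variance (adjusted p = 0.083) or when knockdown replicate 1, control replicate 2 or control replicate 3 was left out.

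The isoprenoid and squalene steps that follow did not pass. Idi1, the isomerase that interconverts the isoprenoid units, read 8.24, 8.17 and 8.17 in knockdown cultures and 8.73, 8.26 and 7.97 in control cultures, so its control arrays lay on both sides of the knockdown arrays (difference -0.13, SE 0.19, limma adjusted p = 0.638). Farnesyl diphosphate synthase, Fdps, differed by 0.12 (95% interval -0.062 to 0.31, limma adjusted p = 0.271). Squalene epoxidase, Sqle, a rate-limiting enzyme downstream of mevalonate, differed by 0.081 (95% interval -0.14 to 0.30, limma adjusted p = 0.546). These intervals exclude a rise as large as the fitted value of Pmvk, the largest of the set, but overlap the interval of Mvk (0.19 to 0.69). Lss, which closes the ring to lanosterol, had non-overlapping groups but a wide control spread, with 9.47, 9.33 and 9.39 in knockdown cultures and 9.23, 8.97 and 8.52 in control cultures. Its difference of 0.49 (SE 0.18) missed the threshold with a limma adjusted p of 0.0795, or 0.044 without background correction and 0.0362 without control replicate 1.

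**Figure D2:**
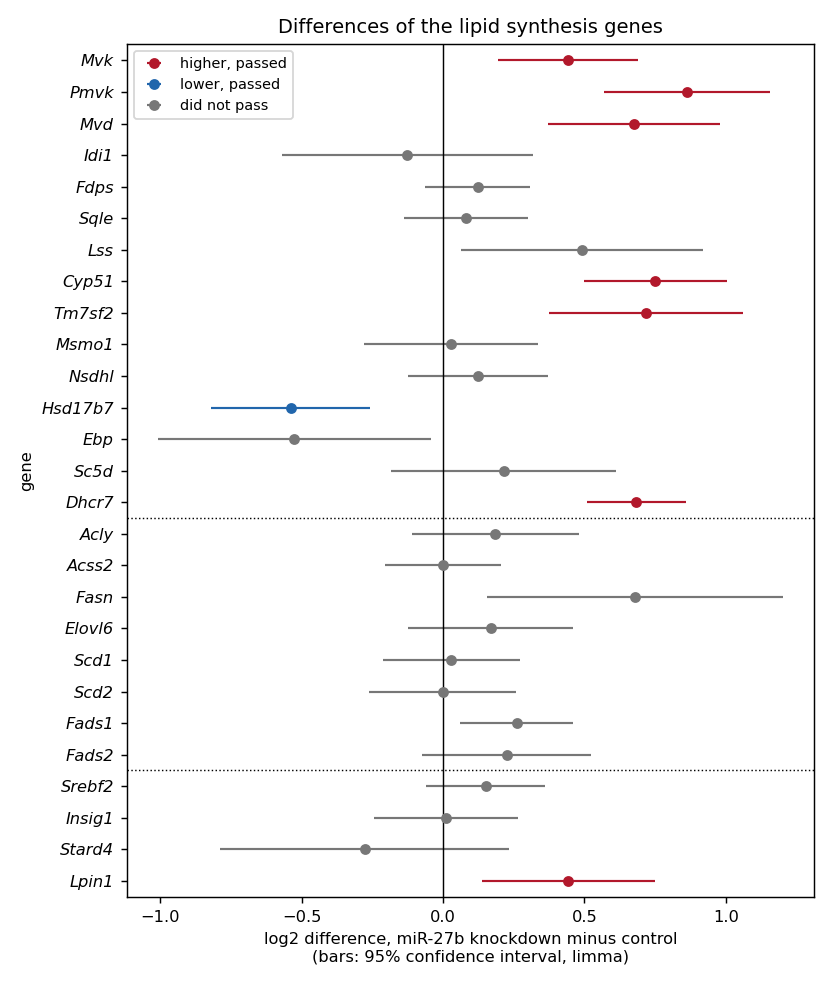
Log2 difference (miR-27b knockdown minus control) of the 27 tested genes with its 95% confidence interval from the limma fit; dotted lines part sterol synthesis, fatty acid synthesis and the remaining genes, and colour marks genes past the adjusted p threshold. Of the sterol enzymes 6 are red and 1 is blue, while the 8 fatty acid enzymes are all grey, with Fasn and Fads1 to the right of 0.

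Among the enzymes after lanosterol, the first steps and the last rose while steps between them fell or did not pass. Cyp51, the lanosterol demethylase, read 12.23, 12.42 and 12.33 in knockdown cultures and 11.60, 11.71 and 11.41 in control cultures. Tm7sf2, a sterol reductase that can act on the product of Cyp51, read 9.78, 10 and 10.04 in knockdown cultures and 9.31, 9.41 and 8.95 in control cultures. Dhcr7, which reduces 7-dehydrocholesterol to cholesterol, read 11.34, 11.30 and 11.35 in knockdown cultures and 10.70, 10.62 and 10.61 in control cultures. The groups did not overlap for any of these genes. Cyp51 rose by 0.75 (SE 0.11, limma adjusted p = 0.00324), a 1.68-fold difference, and Tm7sf2 by 0.72 (SE 0.14, limma adjusted p = 0.0112). Dhcr7 rose by 0.68 (SE 0.073, limma adjusted p = 0.00125) and had the smallest p of the set, with SDs of 0.027 in knockdown and 0.048 in control cultures (n = 3 each). Pmvk, Cyp51, Tm7sf2 and Dhcr7 passed under all 16 alternative settings that were run.

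The genes for removal of the paired methyl groups were divided. Msmo1, the methylsterol monooxygenase, and Nsdhl, the decarboxylating dehydrogenase, differed by 0.029 (95% interval -0.28 to 0.34, limma adjusted p = 0.886) and 0.12 (95% interval -0.13 to 0.37, limma adjusted p = 0.409). Hsd17b7, the ketosteroid reductase of the same step, read 11.61, 11.61 and 11.39 in knockdown cultures and 12.23, 12.10 and 11.89 in control cultures. It fell by 0.54 (SE 0.12, limma adjusted p = 0.0153), with no overlap of the groups, and its adjusted p without control replicate 1 was 0.0511. Ebp, the sterol isomerase, read 10.61, 10.79 and 10.66 in knockdown cultures and 11.26, 11.60 and 10.78 in control cultures, and its difference of -0.53 (SE 0.20) had a limma adjusted p of 0.0913. Leaving out control replicate 3, the control array inside the knockdown range, gave Ebp -0.74 with an adjusted p of 0.0137. Sc5d, the sterol desaturase, differed by 0.21 (SE 0.17, limma adjusted p = 0.367), with a difference of 0.62 in preparation 1 and of 0.016 and 0.0022 in the others.

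**Figure D3:**
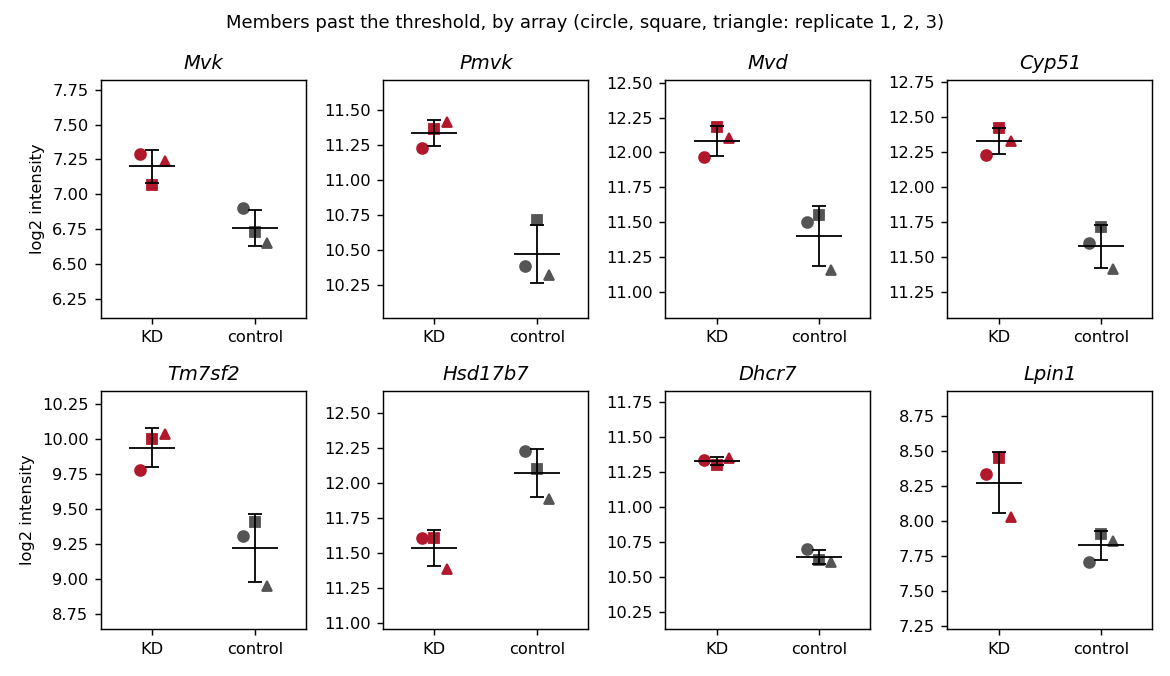
Log2 intensity by array of the 8 members past the threshold, with miR-27b knockdown (KD) left of control in each panel; points are arrays (circle, square and triangle for replicates 1, 2 and 3), horizontal bars are means and whiskers are 1 SD, and every panel spans the same height on the log2 scale. The genes were picked by the threshold, so the gap between the groups in all 8 panels is no separate result. Hsd17b7 is the gene that lies lower after knockdown.

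Control replicate 3 was the lowest control array for 14 of the 15 sterol enzymes, a place it took for 35.8% of all genes. The control arrays were also the more variable group for 14 of the 15, with a median SD of 0.20 in controls against 0.094 in knockdown cultures, while over all genes the medians were 0.12 in controls and 0.14 in knockdown cultures. Without control replicate 3, 5 sterol enzymes rose and 2 fell, against 14.2% and 12.3% of all genes, with a median of 0.18. The 2 that fell were Hsd17b7 and Ebp, and the rise of Mvk was then 0.38 (adjusted p = 0.0541).

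A promoter sequence was held for 27 of the 34 members (RefSeq, GRCm38.p6, 250 bases before to 50 after each annotated start). The CCAAT letters that NF-Y binds were searched on both strands, where the reverse strand reads ATTGG. They occurred in a window of 14 of 15 sterol synthesis genes, 3 of 6 fatty acid synthesis genes and 4 of the remaining 6, against 41.1% of all genes with a window. The 15 sterol genes with a window are not the 15 tested enzymes, since they include Acat2 and Hmgcs1 and lack Fdps and Sqle. The letters were held by 6 of 7 members that rose and 11 of 13 that did not pass. Since most members hold them and the groups are small, these counts cannot show whether the letters go with response. A sterol response element written as TCACNCCAC was found for 1 of the 27 members, Hmgcs1, against 1.44% of all genes. An E-box, CACGTG, was found for 5 of the 27, against 8.09% of all genes. The letters of these motifs can share bases at their ends, which was not corrected for, and a match describes the window alone. The 150 bases before the start are shown for the called members that hold CCAAT in this stretch, 6 that rose and then Hsd17b7, which fell, so that the number and spacing of the boxes can be compared; capitals mark CCAAT or ATTGG.
Mvk, chr5:114444119-114444268, plus strand: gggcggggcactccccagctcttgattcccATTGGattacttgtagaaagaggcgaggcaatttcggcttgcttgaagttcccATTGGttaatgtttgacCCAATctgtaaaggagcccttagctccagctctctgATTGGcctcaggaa
Pmvk, chr3:89454391-89454540, plus strand: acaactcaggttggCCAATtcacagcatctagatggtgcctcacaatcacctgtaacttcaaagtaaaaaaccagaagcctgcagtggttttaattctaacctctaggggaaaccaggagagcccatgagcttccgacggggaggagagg
Mvd, chr8:122443423-122443572, minus strand: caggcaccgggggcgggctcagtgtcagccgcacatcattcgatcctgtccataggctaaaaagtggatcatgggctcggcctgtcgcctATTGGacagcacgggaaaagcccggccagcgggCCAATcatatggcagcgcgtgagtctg
Cyp51, chr5:4104698-4104847, minus strand: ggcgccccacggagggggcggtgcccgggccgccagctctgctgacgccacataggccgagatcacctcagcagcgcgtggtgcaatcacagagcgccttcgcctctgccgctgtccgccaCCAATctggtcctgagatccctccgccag
Tm7sf2, chr19:6067851-6068000, minus strand: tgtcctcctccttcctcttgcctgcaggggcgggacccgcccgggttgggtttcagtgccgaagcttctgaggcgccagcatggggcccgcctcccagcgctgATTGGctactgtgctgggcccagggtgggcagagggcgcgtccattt
Dhcr7, chr7:143830064-143830213, plus strand: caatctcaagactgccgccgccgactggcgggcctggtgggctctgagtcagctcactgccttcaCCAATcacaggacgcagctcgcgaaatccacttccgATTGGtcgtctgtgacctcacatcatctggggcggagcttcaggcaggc
Hsd17b7, chr1:169969206-169969355, minus strand: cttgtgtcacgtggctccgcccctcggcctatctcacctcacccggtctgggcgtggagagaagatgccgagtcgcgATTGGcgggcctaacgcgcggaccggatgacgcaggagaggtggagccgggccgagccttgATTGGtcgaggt
Mvk had 4 boxes in this stretch, Mvd, Dhcr7 and Hsd17b7 had 2 each, and Pmvk, Cyp51 and Tm7sf2 had 1 each. Pmvk has a further annotated start and Dhcr7 has others, and the stretch shown for each is at the start whose window holds the box.

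No fatty acid synthesis gene passed the threshold. Of 8 tested enzymes limma called 0 higher and 0 lower, against 16.6% and 15.3% of all genes, and 2 had an unadjusted p under 0.05. The median difference was 0.18 (0.15, 0.17 and 0.18 in the 3 preparations), or 0.027 with median scaling, and Acss2, Scd1 and Scd2 lay near 0. Fasn and Fads1 are the genes with the unadjusted p under 0.05. Fasn, the fatty acid synthase, read 7.01, 6.83 and 7.01 in knockdown cultures and 5.84, 6.24 and 6.74 in control cultures. The groups did not overlap, yet the control arrays spanned a far wider range than the knockdown arrays. Its difference of 0.68 (SE 0.22) had a limma adjusted p of 0.0558. Without background correction it was 0.38 with an adjusted p of 0.0367, and without control replicate 3 it was 0.91 with an adjusted p of 0.0106. Fads1, the delta-5 desaturase of polyunsaturated fatty acids, read 14.05, 14.07 and 13.90 in knockdown cultures and 13.74, 13.79 and 13.70 in control cultures. It differed by 0.26 (SE 0.083, limma adjusted p = 0.0544), or by 0.077 with median scaling (adjusted p = 0.822), and had an adjusted p of 0.0406 without knockdown replicate 3.

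The other fatty acid enzymes had adjusted p-values above 0.2. Acly, which makes cytosolic acetyl-CoA from citrate, differed by 0.19 (SE 0.12, limma adjusted p = 0.298), and Acss2, which makes it from acetate, by less than 0.0001 (95% interval -0.20 to 0.20). The elongase gene Elovl6 and the desaturase gene Fads2 differed by 0.17 (limma adjusted p = 0.336) and 0.22 (limma adjusted p = 0.216), each higher in 3 of 3 preparations. The stearoyl-CoA desaturase genes had differences near 0, with overlapping groups. Scd1 read 12.26, 12.02 and 12.06 in knockdown cultures and 12.13, 11.96 and 12.16 in control cultures, a difference of 0.030 (95% interval -0.21 to 0.27). Scd2, the main brain form in mice, read 11.49, 11.46 and 11.79 in knockdown cultures and 11.55, 11.57 and 11.62 in control cultures, a difference of -0.0012 (95% interval -0.26 to 0.26).

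Regulators of the pathway showed small differences. Srebf2, the SREBP that drives cholesterol genes, read 9.89, 10.03 and 10.09 in knockdown cultures and 9.78, 9.91 and 9.87 in control cultures, a difference of 0.15 (SE 0.088, limma adjusted p = 0.237). Its other probe differed by 0.28 (adjusted p over all detected probes = 0.0754). Insig1, the sterol-responsive brake on SREBP processing, differed by 0.011 (95% interval -0.24 to 0.27, limma adjusted p = 0.952) by the probe used, and by 0.24 and 0.35 by its other detected probes (adjusted p over all detected probes = 0.281 and 0.16). Stard4, a sterol carrier and SREBP target, read 11.26, 11.19 and 10.81 in knockdown cultures and 11.58, 11.59 and 10.92 in control cultures, lower in 3 of 3 preparations at -0.28 (SE 0.21, limma adjusted p = 0.364). Lpin1, a phosphatidate phosphatase and transcriptional coregulator, was the 1 gene of 4 tested in this group that passed, a share (25%) below the 31.9% of all genes called. It read 8.34, 8.45 and 8.03 in knockdown cultures and 7.71, 7.91 and 7.86 in control cultures, with no overlap. Lpin1 rose by 0.44 (SE 0.13, limma adjusted p = 0.0397). That call was lost with median scaling (adjusted p = 0.162), with no filter on dim probes (adjusted p = 0.0776), and when either of knockdown replicates 1 and 2 or any control array was left out. Its other detected probe differed by 0.28 (adjusted p over all detected probes = 0.217).

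The genes below the filter include the SREBP of fatty acid synthesis. The brighter probe of Srebf1 read 5.45, 5.58 and 5.50 in knockdown cultures and 5.75, 6.19 and 5.96 in control cultures, and was detected on 0 of 3 knockdown arrays and 2 of 3 control arrays. With no filter its difference was -0.45 (SE 0.13, limma adjusted p = 0.0644). The probe of Abca1, the cholesterol efflux pump, was detected on 0 of 6 arrays, reading 4.73, 4.87 and 4.88 in knockdown cultures and 4.87, 4.74 and 5.10 in control cultures. Soat1, which esterifies cholesterol for storage, was detected on 1 knockdown array and 1 control array.

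Of the 27 tested members, 19 rested on 1 detected probe and 8 on several. For 6 of the 8 the detected probes shared a sign, and none of the second probes passed over all 18627 detected probes, where 27.4% passed (13.9% higher and 13.6% lower). The exceptions in sign were Fdps, whose dimmer probe differed by -0.28 (adjusted p over all detected probes = 0.123), and Elovl6, whose dimmer probe differed by -0.070. The 4 probes of Nsdhl differed by 0.12, 0.27, 0.25 and 0.042. Probes of Pmvk, Mvd, Mvk, Cyp51, Tm7sf2 and Dhcr7 were unique on the array, so no second probe bears on those rises.

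Genes around the synthesis pathway were described from lists taken from general knowledge, but chosen with earlier results of these data known. Of 9 tested genes of sterol sensing and SREBP processing, 1 rose, 1 fell and 7 did not pass (median 0.12), or 2 rose with the replicate block. The share called was 22.2%, below the 31.9% over all genes. Insig2, the second INSIG gene, read 10.01, 9.92 and 10.03 in knockdown cultures and 10.49, 10.37 and 10.53 in control cultures. It fell by 0.48 (SE 0.083, limma adjusted p = 0.00667), and its other detected probe differed by -0.35 (adjusted p over all detected probes = 0.0611). Sec24d, a coat protein of the vesicles that carry proteins from the endoplasmic reticulum to the Golgi, rose by 1.06 (SE 0.15, limma adjusted p = 0.00314), or by 0.69 without background correction. Scap, the SREBP escort, differed by 0.043.

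Of 26 tested genes of citrate export, elongation, acyl activation and glycerolipid synthesis, 3 rose, 1 fell and 22 did not pass (median 0.078), or 5 rose with the replicate block. The share called, 15.4%, was below the 31.9% of all genes. The mitochondrial citrate carrier gene Slc25a1, which supplies the carbon that Acly cleaves, read 11.37, 11.36 and 11.38 in knockdown cultures and 10.84, 10.79 and 10.72 in control cultures. It rose by 0.58 (SE 0.073, limma adjusted p = 0.00223), and its other probe differed by 0.55. Elovl5, an elongase of polyunsaturated fatty acids, rose by 0.58 (SE 0.099, limma adjusted p = 0.00616) and the acyl-CoA synthetase gene Acsl5 by 0.32 (SE 0.076, limma adjusted p = 0.0196). These 3 calls were lost with median scaling, under which 0 of the 26 rose by limma and 1 fell. The call of Acsl5 was also lost with the mean of its probes and when any array other than knockdown replicate 3 was left out. The other detected probe of Acsl5 differed by 0.24 (adjusted p over all detected probes = 0.183). Hacd2, a dehydratase of the elongation cycle, fell by 0.63 (SE 0.13, limma adjusted p = 0.0139).

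Cholesterol transport and turnover genes moved in both directions, with 7 higher, 7 lower and 8 not passing among 22 tested (median -0.064), or 63.6% called against 31.9% of all genes. This list too was chosen with earlier results known, so its share is a description of the list alone. With median scaling 3 were higher and 4 lower, against 8.15% and 12.1% of all genes. Leaving out knockdown replicate 1, knockdown replicate 2 or control replicate 1 gave 5 and 4, 4 and 2, and 4 and 3, in fits that called 11.4% to 12.5% of all genes higher and 9.28% to 12.3% lower. The rises with the largest differences were those of Npc2, Stard3 and Lipa. Npc2, the lysosomal carrier that hands cholesterol to NPC1, read 10.08, 9.94 and 9.98 in knockdown cultures and 8.96, 8.86 and 9.08 in control cultures, a rise of 1.03 (SE 0.092, limma adjusted p = 0.000707). Lipa, the lysosomal acid lipase that frees cholesterol from its esters, rose by 0.72 (SE 0.13, limma adjusted p = 0.00676), and Stard3, a late endosomal sterol carrier, by 0.91 (SE 0.097, limma adjusted p = 0.00125). Their other detected probes differed by 0.71 for Lipa and 0.67 for Stard3 (adjusted p over all detected probes = 0.175 and 0.00679). Npc1 rose by 0.47 (SE 0.14, limma adjusted p = 0.045), but passed in 8 of 16 alternatives and changed sign in 2 (adjusted p = 0.0843 with the replicate block), and another of its detected probes differed by -0.053.

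**Figure D4:**
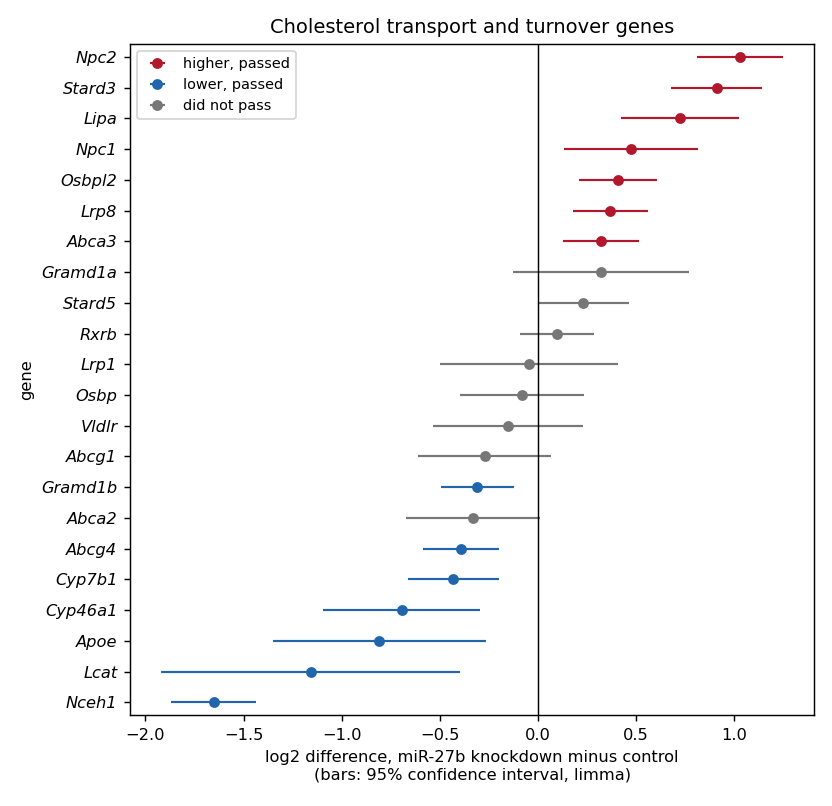
Log2 difference (miR-27b knockdown minus control) of the 22 tested genes of cholesterol transport and turnover with its 95% confidence interval from the limma fit, ordered by difference; colour marks genes past the adjusted p threshold. Npc2 lies at the top with 1.03 and Nceh1 at the bottom with -1.65.

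The falls with the largest differences were those of Nceh1, Lcat, Apoe and Cyp46a1. Nceh1, the neutral cholesterol ester hydrolase, read 10.82, 10.86 and 10.70 in knockdown cultures and 12.45, 12.35 and 12.55 in control cultures. It fell by 1.65 on the log2 scale (SE 0.091, limma adjusted p = 0.00027) and passed under all 16 alternatives. Apoe, the main apolipoprotein of astrocytes, fell by 0.81 (SE 0.23, limma adjusted p = 0.0356), in cultures where 6 of 11 astrocyte markers fell. Apoe did not pass with no filter on dim probes or when any array other than knockdown replicate 3 was left out. Lcat, which esterifies cholesterol on lipoproteins, was detected on 0 of 3 knockdown arrays and 3 of 3 control arrays (limma adjusted p = 0.0338). With its knockdown values raised to the dimmest detected probe of each array, it was 1.97-fold lower in knockdown cultures. That size depends on the background correction, since the fitted difference was -1.16, or -0.63 without it. Lcat passed in 8 of the 13 alternatives that tested it, not when any knockdown array was left out. Its other detected probe differed by -0.54 (adjusted p over all detected probes = 0.213). Cyp46a1, the neuronal enzyme that turns cholesterol into the oxysterol exported from brain, read 7.55, 7.78 and 7.99 in knockdown cultures and 8.36, 8.28 and 8.76 in control cultures. It fell by 0.69 (SE 0.17, limma adjusted p = 0.0212), a call lost without knockdown replicate 1 or 2.

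Fatty acid oxidation, the opposite process, had 1 gene higher, 1 lower and 11 not passing among 13 tested (median -0.027), or 2 lower with the replicate block. The share called was 15.4%, against 31.9% of all genes. Hadhb, the beta subunit of the mitochondrial trifunctional protein, fell by 1.01 (SE 0.10, limma adjusted p = 0.00111). Acaa2, a mitochondrial thiolase gene, rose by 0.57 (SE 0.13, limma adjusted p = 0.0177), and its other detected probes differed by 0.61, 0.59 and 0.49. The call of Acaa2 was lost with median scaling (adjusted p = 0.0542).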

How the data were processed

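Total RNA (500 ng per sample) was labelled with biotin and read on an Illumina bead array, per the labels' protocols. Per the file headers, the deposited values are an unnormalised intensity for every probe on every array, each with a detection p-value. Neither headers nor labels name the scanner software or its background setting. A second deposited table holds intensity values on a common distribution, which differed from quantile-normalised values of the first by at most 0.00462 (log2) and served as an alternative.

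Background was corrected with limma 3.58.1 in R 4.3.3 (normexp from detection p-values, offset 16), followed by quantile normalisation and log2. Probes detected on at least 3 arrays were kept (18627). Symbols came from the platform annotation (35784 probes named, 9497 unnamed, 0 with several symbols). Through a RefSeq table of GRCm38.p6, 937 were updated, by Entrez gene id or, where no id matched, by transcript accession. The brightest kept probe stood for each gene. Differences are knockdown minus control from lmFit and eBayes on 6 arrays, with Benjamini-Hochberg adjustment over 11280 genes and a threshold of 0.05. Other probes come from a fit over all kept probes. The method was tested on simulated data. The simulation drew independent noise on normalised values, so it did not test pairing, background correction or normalisation. The number of arrays limits the precision.

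Same-numbered arrays deviated together (correlations from 0.148 to 0.253 across genes, against -0.206 to 0.0034 for unlike numbers), and the design text gives 3 preparations, so the numbers were taken as pairs. Deviations were taken from each group's mean, so unlike numbers lean negative whenever like numbers are positive, and the contrast is partly built in. A fit with this replicate block was run beside each result. Nothing states whether preparations came from separate animals. P-values measure the spread between these samples. All members are named. Of each other list, up to 6 genes past the threshold with the largest difference are named, and Cyp46a1 whatever its result. Some genes are not reported here. Scap, Npc1, markers other than the brightest of their list and the second probes were added after values had been seen. The members and lists were chosen with earlier results of these data known. Alternatives covered background, scaling, starting values, filter, probe choice, pairing, variance model and leaving out each array.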

Additional observations from a re-analysis of the deposited data

How the results depend on the processing

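Each result was recomputed under 10 processing alternatives and 6 fits that left out 1 array, and no called difference of a member changed sign. The count of sterol enzymes higher, 6, ran from 4 to 7. The count lower, 1, was 2 without background correction and with the series matrix values. The fatty acid enzymes higher, 0, became 2 without background correction, with an offset of 50, with the series matrix values and with a trended robust variance, and 1 with median scaling and with detection p under 0.01 on all 6 arrays (where Fasn had no value). Their median was 0.0272 with median scaling and 0.117 with the mean of detected probes. The regulators higher, 1 (Lpin1), became 0 with median scaling and with no filter. Their median was -0.00707 with median scaling, 0.062 with cyclic loess, 0.0105 with no filter (7 genes in place of 4) and 0.207 with the mean of detected probes. Median scaling gave 919 of all genes higher and moved the share of calls that were higher to 40.2%, against 52.0%. Unless a sentence names it, the cause was not tested.

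Leaving out 1 array gave 5 to 7 sterol enzymes higher and 0 to 2 lower (median 0.15 to 0.359). It gave 0 to 1 fatty acid enzymes higher (median 0.0884 to 0.192), 0 to 1 regulators higher (median 0.0279 to 0.169), and 1258 to 1633 of all genes higher and 1026 to 1488 lower, with the lowest count lower without control replicate 1. With the replicate block 6 sterol enzymes rose and 1 fell, 0 fatty acid enzymes passed and 1 regulator rose, with 1931 of all genes higher and 1841 lower, so the pairing changed no call among the members. Probe brightness limits the dim genes Mvk and Fasn, whose sizes depend on the background correction.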
